A study of Mus musculus with 12 samples.

Results

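The 39 genes described here encode mouse nuclear receptors other than the sex steroid and retinoic acid receptors. They were taken by name from a list of symbols, and all 39 were present among the 55228 genes of both deposited count tables. The set still holds the glucocorticoid receptor Nr3c1 and the mineralocorticoid receptor Nr3c2, which bind corticosteroids, and the retinoid X receptors Rxra, Rxrb and Rxrg, so a description as neither steroid nor retinoid receptors holds for the remaining members only. RNA was measured in 4 groups of 3 libraries: E18.5 bladder mesenchyme, E18.5 urethral mesenchyme, E14.5 bladder mesenchyme and E14.5 urethral mesenchyme. All groups came from untreated, wild-type, female CD-1 mouse embryos, with E for embryonic day, and the females of a litter were pooled into each sample. Bladder and urethra were freed of epithelium with forceps after digestion in ice-cold trypsin. The stated purpose was to find genes that differ between the compartments. These are bulk samples, so fewer cells of a type and less RNA per cell cannot be told apart.

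Most nuclear receptors, though not all members of this set, bind short DNA elements built around the hexamer AGGTCA. They do so alone, as homodimers or as heterodimers with a retinoid X receptor, and they recruit corepressors or coactivators. Some respond to circulating hormones, others to fatty acids, oxysterols or bile acids, and the orphan receptors have no established hormone. In the lower urinary tract the family is best known through the urothelium, where PPAR gamma takes part in differentiation. In mesenchyme, COUP-TF receptors are used as regional regulators, and glucocorticoid signalling accompanies late fetal maturation in many organs.

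Members that bear an AGGTCA hexamer close to a start site are shown first, because this is the element most of the family binds. In the 250 bases before each RefSeq start site on GRCm38.p6, AGGTCA was searched on both strands, so that it also appears as TGACCT. It was found in 10 of 52 windows of the members (19.2%), belonging to 9 of the 36 members with a window, against 14% of 32851 windows of all genes. The E-box CACGTG, the element of the clock factors, was in 3 of 52 member windows (5.77%) and in 6.02% of all windows, and no copy of it overlapped an AGGTCA. Of the 10 windows, 4 had no base inside an exon listed in the deposited tables, and these 4 are printed 5′ to 3′ with the hexamer in capitals. They belong to Rxra, Rxrg, Nr1h4 and Nr5a2. Rxra, Rxrg and Nr5a2 each had another window, at a different start site, without a match. The printed windows of Rxra, Rxrg and Nr1h4 lie inside the span of the gene. All 4 of these members were called in at least 1 comparison, as were 28 of the 33 tested members. Of all tested genes, 8.67% to 45.7% were called in any single comparison. The share called in at least 1 comparison was not counted for all genes, so these counts have no background to be read against. A match is a description of the letters and not a binding site.
Rxra, chr2:27709042-27709291, plus strand, hexamers starting 87 and 48 bases before the start: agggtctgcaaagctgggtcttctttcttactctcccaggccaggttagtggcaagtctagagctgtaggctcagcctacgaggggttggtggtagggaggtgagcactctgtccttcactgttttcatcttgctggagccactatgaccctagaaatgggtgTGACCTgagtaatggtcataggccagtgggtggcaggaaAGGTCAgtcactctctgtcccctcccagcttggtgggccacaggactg
Rxrg, chr1:167618015-167618264, plus strand, hexamer starting 88 bases before the start: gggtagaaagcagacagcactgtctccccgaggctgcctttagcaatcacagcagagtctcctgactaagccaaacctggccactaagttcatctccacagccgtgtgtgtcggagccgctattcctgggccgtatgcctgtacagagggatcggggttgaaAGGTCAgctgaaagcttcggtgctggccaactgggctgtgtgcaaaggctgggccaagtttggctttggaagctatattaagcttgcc
Nr1h4, chr10:89506659-89506908, minus strand, hexamer starting 214 bases before the start: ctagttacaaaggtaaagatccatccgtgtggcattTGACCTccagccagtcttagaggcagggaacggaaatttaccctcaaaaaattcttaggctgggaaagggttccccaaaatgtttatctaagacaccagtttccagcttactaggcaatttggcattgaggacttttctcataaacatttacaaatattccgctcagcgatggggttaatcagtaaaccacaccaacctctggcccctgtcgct
Nr5a2, chr1:136960449-136960698, minus strand, hexamer starting 64 bases before the start: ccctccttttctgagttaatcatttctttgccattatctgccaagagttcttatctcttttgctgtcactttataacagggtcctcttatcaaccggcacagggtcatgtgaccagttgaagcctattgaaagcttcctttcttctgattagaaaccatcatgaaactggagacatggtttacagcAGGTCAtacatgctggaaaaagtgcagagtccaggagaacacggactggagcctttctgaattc

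Library totals ranged from 21495169 to 36349777 counts, so that 3 counts corresponded to 0.0825 to 0.1396 CPM, the count per 1e6 counts of the TMM-scaled library. The labelled mesenchyme carried its markers in every group, with a summed level of 10 genes of 29400 to 36300 CPM in E18.5 bladder, 17100 to 19400 CPM in E18.5 urethra, 20900 to 28100 CPM in E14.5 bladder and 9100 to 13100 CPM in E14.5 urethra. Epithelial RNA was present as well. The 16 epithelial markers summed to 11200 to 14700 CPM in E18.5 bladder, 3160 to 4880 CPM in E18.5 urethra, 392 to 1920 CPM in E14.5 bladder and 746 to 1630 CPM in E14.5 urethra. Smooth muscle markers reached 22900 to 42500 CPM in E18.5 bladder, against 2470 to 2770 CPM in E18.5 urethra, and 6350 to 8380 CPM in E14.5 bladder, against 1630 to 3550 CPM in E14.5 urethra. Neuronal markers ran the other way, with 89.8 to 201 CPM in E18.5 bladder, against 732 to 2020 CPM in E18.5 urethra. On the first principal component, which held 44.7% of the variance, E14.5 bladder replicate 1 lay at 11.7, its group mates at 37.3 and 52.5 and the E18.5 urethral libraries at -3.61 to 5.91. That library had the most epithelial and neuronal marker RNA of its group. The part of these differences in cell makeup in the receptor values was not tested.

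**Figure D1:**
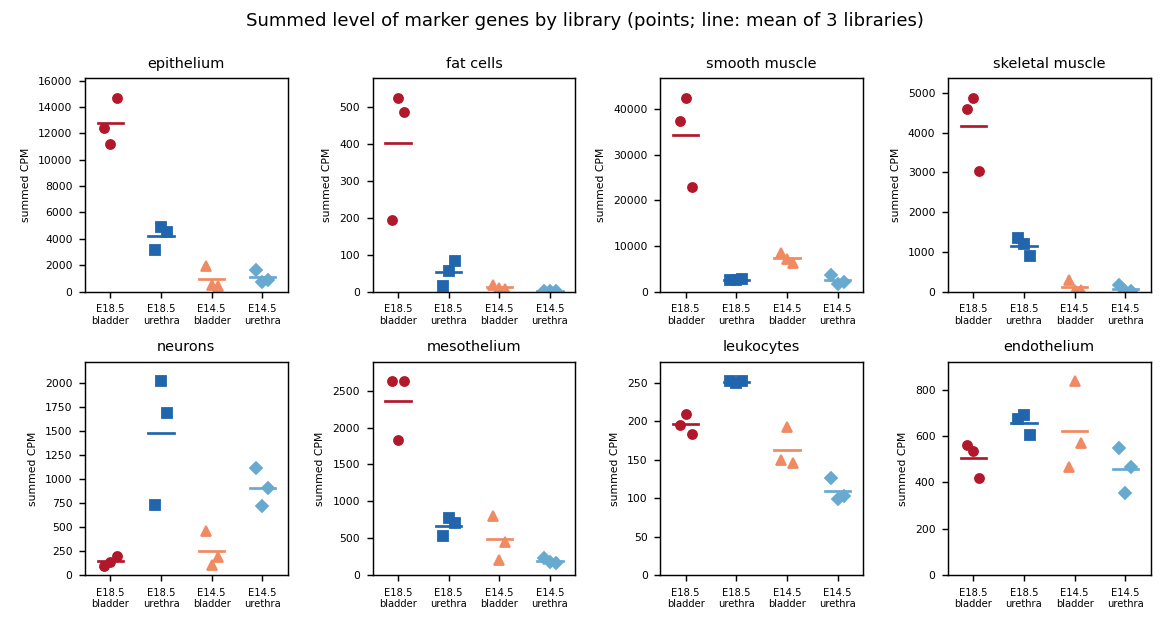
Summed CPM (linear axis) of the marker genes of 8 cell types, with 1 point per library and a line at the mean of 3 libraries. From left to right the groups are E18.5 bladder, E18.5 urethra, E14.5 bladder and E14.5 urethra. Epithelial, smooth muscle and mesothelial markers are highest in E18.5 bladder, and neuronal markers are higher in urethra at both stages.

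Of the 39 receptors, 20 averaged at least 10 CPM in their highest group, and 7 stayed under 1 CPM in every group. Levels of different genes are set side by side per kb of exon length. On that scale the thyroid hormone receptor Thra was the most abundant member, at a mean level of 49.0 CPM per kb over all 12 libraries. It was followed by Nr2f6 at 25.6, Rxra at 25.5, Nr2f1 at 24.2, Nr2f2 at 20.0, then Rxrb, Nr1h2 at 18 and Nr3c1 at 11.8 CPM per kb, with Rxrb between Nr2f2 and Nr1h2. The group that held the highest mean of a gene changed along this list: Nr2f1 was highest in E14.5 urethra and Rxra in E18.5 bladder. At the other end, Nr2e1, a receptor known from neural stem cells, had 0 counts in all 12 libraries. The xenobiotic receptors Nr1i2 and Nr1i3, the photoreceptor factor Nr2e3, the gonadal and adrenal factor Nr5a1 and the corepressor-like Nr0b2 were also too low to be tested, which left 33 members in the tests. In 3 members over 10% of the exon bases lay on exons of a gene on the opposite strand: Nr1i3 with 74.9% (Tomm40l), Nr2f6 with 54.4% (Ocel1) and Nr2c2 with 31.2% (Gm44249 and Mrps25). The strand setting of the counting is not given, so the values of these genes are uncertain.

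**Figure D2:**
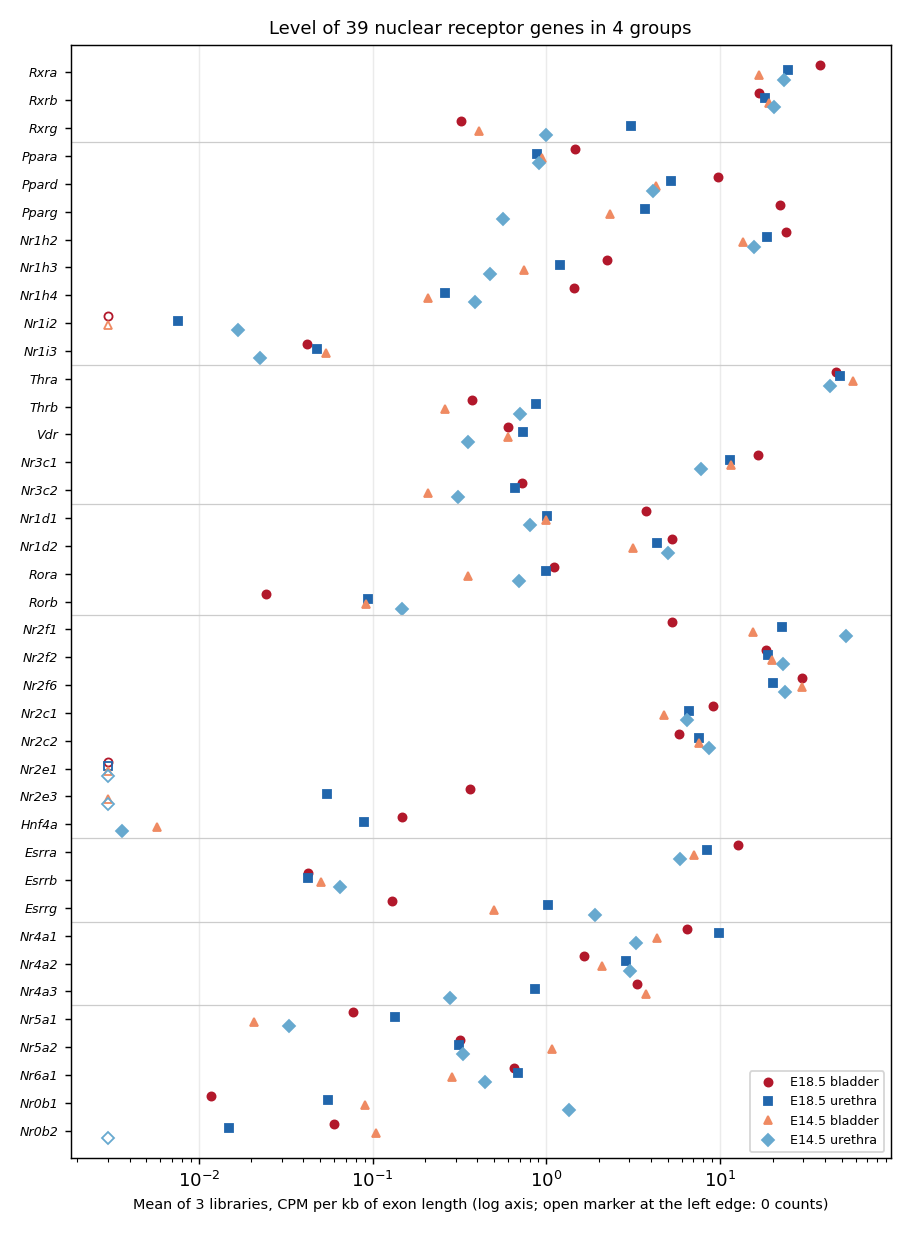
Mean level of each of the 39 receptor genes in the 4 groups, in CPM per kb of exon length on a log axis, with genes ordered by role. Open markers at the left edge stand for 0 counts. Thra, Nr2f1, Nr2f2, Nr2f6, Rxra and Nr1h2 are at the high end, and Nr2e1 is at 0 in all groups.

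Bladder mesenchyme was first set against urethral mesenchyme at each stage. A gene was called where the adjusted p of edgeR's quasi-likelihood test was under 0.05, and differences are on the log2 scale with their SE, above 0 for bladder over urethra. At E18.5, 10 of the 33 tested receptors were higher in bladder and 7 were lower, which is 51.5% of them. Of all 18805 tested genes, 34.8% were called, 3482 as higher and 3053 (16.2%) as lower. At E14.5, 5 were higher and 6 lower, or 33.3%, against 24.9% of all genes, 12.4% higher and 12.5% lower. The libraries of the compartments did not overlap for 21 members at E18.5 and 16 at E14.5, where 52.1% and 37.7% of all tested genes showed the same. The median log2 difference of the members was 0.14 at E18.5 (all genes 0.05) and -0.21 at E14.5 (all genes -0.0035). Pparg, Nr4a3 and Nr3c1 were called higher in bladder at both stages, and Nr2f1, Esrrg and Thrb were called lower at both. The difference itself changed between the stages, by a test of E18.5 minus E14.5, for 6 members, each in the direction of bladder in the fit without a replicate block: Rxra, Ppard, Nr1h4, Nr1d1, Nr1d2 and Nr2c1. That is 18.2% of the members, against 8.67% of all genes, 4.64% upward and 4.03% downward. The count in the other direction was 0 by edgeR, with 5 members at an unadjusted p under 0.05, and 2 by DESeq2. With the replicate number as a block, edgeR called 2 members toward urethra, Rxrg (-2.09, adjusted p = 0.0469) and Nr5a2 (-1.58, adjusted p = 0.0406). The count of 6 was 1 without E18.5 urethral replicate 1, 2 without any 1 of E18.5 bladder replicates 1 and 3, E18.5 urethral replicate 2, E14.5 bladder replicate 3 and E14.5 urethral replicate 3, and 3 without E14.5 bladder replicate 2. At E14.5 the count of higher members was 2 without E14.5 bladder replicate 2 and 3 without E14.5 urethral replicate 3, and that of lower members was 3 without E14.5 bladder replicate 3. At E18.5 the count of lower members was 4 without E18.5 bladder replicate 3.

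**Figure D3:**
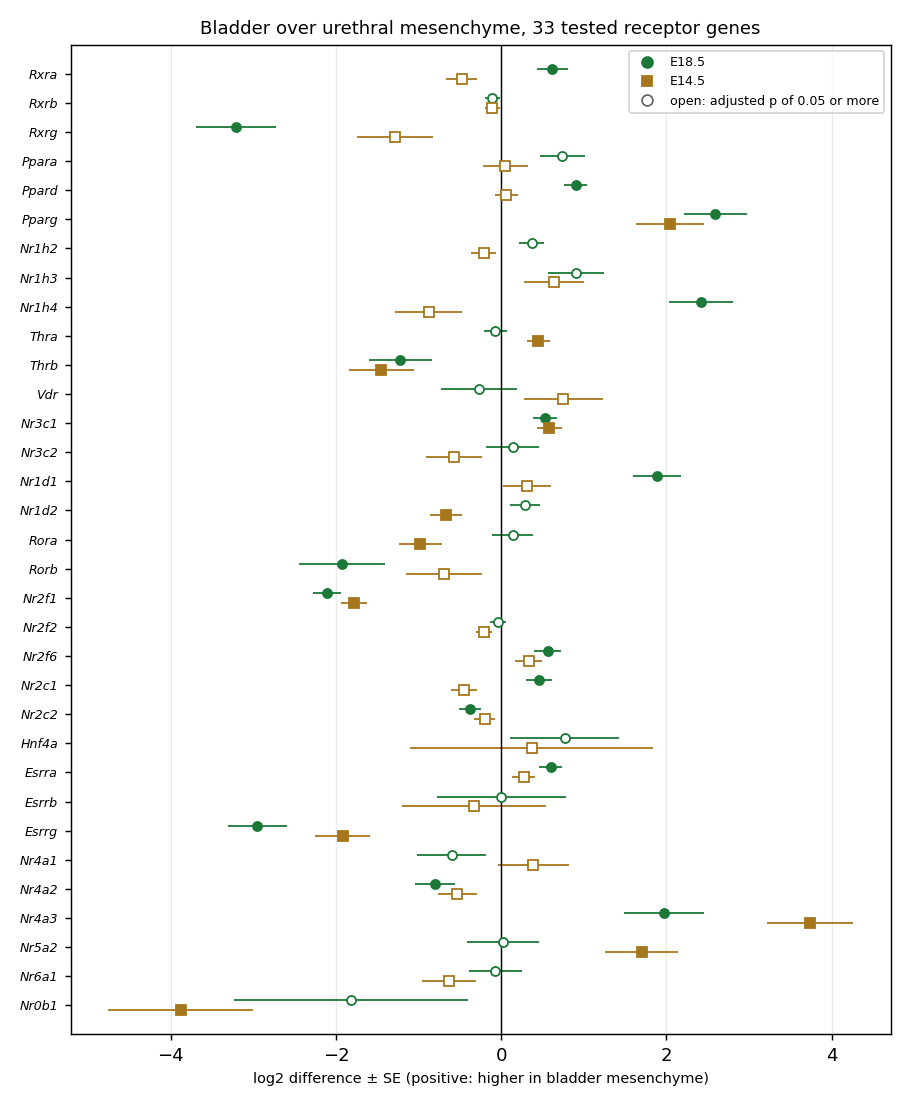
Log2 difference of bladder over urethral mesenchyme for the 33 tested receptors at E18.5 (green circles) and E14.5 (brown squares), with bars of 1 SE. Filled markers were called by edgeR, and open markers were not. Pparg and Nr4a3 lie to the right at both stages, and Nr2f1, Esrrg and Thrb to the left.

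The second question was how each compartment changed with age. In bladder, 15 of 33 receptors were higher at E18.5 than at E14.5 and 5 were lower, or 60.6%, against 45.7% of all tested genes, 23.7% higher and 22.0% lower. In urethra 9 rose and 2 fell, or 33.3%, against 24.4% of all genes, 13.6% higher and 10.8% lower. The median log2 difference of the members was 0.51 in bladder (all genes -0.02) and 0.20 in urethra (all genes -0.06). The libraries of the stages did not overlap for 23 members in bladder, where 55.8% of all genes showed the same, and for 19 in urethra, where 44.0% did. The urethral count of rises was 4 without E18.5 urethral replicate 2 or E14.5 urethral replicate 2, 5 without E18.5 urethral replicate 3 and 2 without E14.5 urethral replicate 3. Pparg, Nr1h3, Nr3c1, Nr3c2, Hnf4a and Esrra rose in both compartments, and Nr2f1 fell in both. The bladder comparison shares its E18.5 libraries with the E18.5 comparison of the compartments, and its E14.5 libraries with the one at E14.5.

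**Figure D4:**
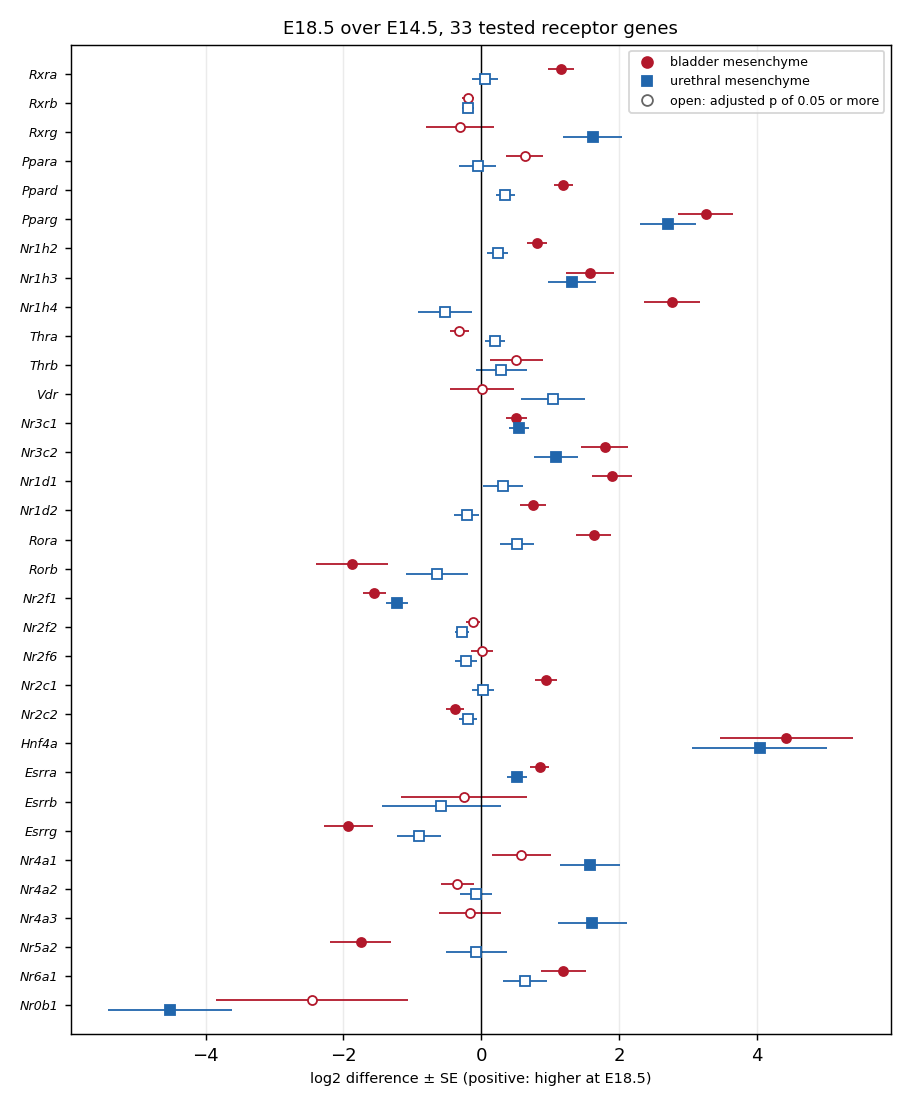
Log2 difference of E18.5 over E14.5 for the 33 tested receptors in bladder (red circles) and urethral mesenchyme (blue squares), with bars of 1 SE. Filled markers were called by edgeR, and open markers were not. Pparg, Nr1h3, Nr3c2 and Hnf4a lie to the right in both compartments, and Nr2f1 and Nr0b1 to the left.

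Retinoid X receptors are the common dimer partners of the PPAR, LXR, FXR, thyroid hormone and vitamin D receptors. Rxra, the main RXR of epithelia and many mesenchymal tissues, was at 269, 189 and 253 CPM in the E18.5 bladder libraries, 155, 140 and 167 CPM in E18.5 urethra, 118, 113 and 85.8 CPM in E14.5 bladder, and 177, 107 and 158 CPM in E14.5 urethra. All 3 E18.5 bladder libraries lay above every other library. Rxra was 2.24-fold higher in E18.5 than in E14.5 bladder (log2 1.16 ± 0.19, adjusted p = 0.000449), and the urethral stages did not differ by the test (0.06 ± 0.19, adjusted p = 0.841). The compartment difference was 0.62 ± 0.19 at E18.5 (adjusted p = 0.024) and -0.48 ± 0.19 at E14.5 (adjusted p = 0.0867). Its change of 1.1 ± 0.27 was called (adjusted p = 0.0267), and leaving out 1 of 7 libraries lost that call (0.95 to 1.11): E18.5 bladder replicate 1 or 3, E18.5 urethral replicate 1 or 2, E14.5 bladder replicate 3, or E14.5 urethral replicate 1 or 3. The E14.5 difference was called without E14.5 urethral replicate 2 (-0.67, adjusted p = 0.0189). The E18.5 call was lost without E18.5 bladder replicate 1 (0.52) or 3 (0.58), or without E18.5 urethral replicate 1 (0.63) or 2 (0.56), with adjusted p of 0.0635 to 0.0873.

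Rxrg, the RXR of muscle and nervous tissue, ran against Rxra. It was at 0.299, 0.644 and 1.28 CPM in E18.5 bladder, 6.17, 8.19 and 6.69 CPM in E18.5 urethra, 1.28, 0.746 and 0.778 CPM in E14.5 bladder, and 3.33, 1.52 and 2.02 CPM in E14.5 urethra. The bladder libraries lay below the urethral ones at both stages. Rxrg was 9.47-fold lower in E18.5 bladder than in E18.5 urethra (-3.21 ± 0.48, adjusted p = 0.00026), or -3.92 without E18.5 bladder replicate 3. In urethra it rose 3.07-fold by E18.5 (1.62 ± 0.43, adjusted p = 0.0178), a call that was lost without E18.5 urethral replicate 2 (1.5) or E14.5 urethral replicate 2 (1.39) or 3 (1.54). The change of the compartment difference, -1.93 ± 0.65, was not called (adjusted p = 0.0869), but it was with the replicate block (-2.09, adjusted p = 0.0469), by DESeq2 (-1.96, adjusted p = 0.0283) and without E18.5 bladder replicate 3 (-2.64, adjusted p = 0.0286). Rxrb, the ubiquitous RXR, had group means of 66.2, 71.5, 75.6 and 81.5 CPM in E18.5 bladder, E18.5 urethra, E14.5 bladder and E14.5 urethra, and it was called in no comparison.

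The receptors for fatty acids, sterols and bile acids were called upward in each comparison in which they were called. Of 6 tested, 5 rose in bladder by E18.5 and 3 were higher in E18.5 bladder than in E18.5 urethra. Of all tested genes, 23.7% rose in bladder and 3482 of 18805 were higher in E18.5 bladder, and no test compared the groups of receptors with each other. All 6 had E18.5 bladder libraries that lay above every E18.5 urethral and every E14.5 bladder library. Of all tested genes, 52.1% did not overlap, in either direction, between the E18.5 compartments and 55.8% between the bladder stages. The share with both was not counted. Pparg (chr6:115360951-115490399), the receptor that drives fat cell and urothelial differentiation, was the strongest. It was at 59.4, 67.5 and 70.1 CPM in E18.5 bladder, 7.87, 10.7 and 14.1 CPM in E18.5 urethra, 11.7, 5.22 and 3.63 CPM in E14.5 bladder, and 2.19, 1.73 and 1.06 CPM in E14.5 urethra. The compartments did not overlap at either stage, and neither did the stages in either compartment. Bladder was 6.02-fold above urethra at E18.5 (2.59 ± 0.38, adjusted p = 0.000303) and 4.12-fold above it at E14.5 (2.04 ± 0.41, adjusted p = 0.00464). From E14.5, Pparg rose 9.58-fold in bladder (3.26 ± 0.40, adjusted p = 6.93e-05) and 6.57-fold in urethra (2.71 ± 0.41, adjusted p = 0.00116). Without E14.5 bladder replicate 1, the highest of its group, the E14.5 difference was 1.40 and the rise in bladder 3.90, both still called.

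Ppard, a broadly expressed PPAR, was at 75.0, 67.7 and 76.5 CPM in E18.5 bladder, 36.7, 41.1 and 40.0 CPM in E18.5 urethra, 36.8, 33.4 and 26.1 CPM in E14.5 bladder, and 33.7, 26.4 and 32.3 CPM in E14.5 urethra. Only E18.5 bladder stood apart among the 4 groups. It was 1.86-fold above E18.5 urethra (0.90 ± 0.14, adjusted p = 0.000369) and 2.28-fold above E14.5 bladder (1.19 ± 0.14, adjusted p = 4.94e-05). The E14.5 compartments differed by 0.06 ± 0.14 (adjusted p = 0.784), and the change of 0.83 ± 0.20 was called (adjusted p = 0.0218). The change was not called without E18.5 bladder replicate 1 or 3, E18.5 urethral replicate 1 or 3, or E14.5 urethral replicate 3 (0.79 to 0.85). Ppara, the PPAR of fatty acid oxidation, had group means of 5.60, 3.36, 3.61 and 3.49 CPM in E18.5 bladder, E18.5 urethra, E14.5 bladder and E14.5 urethra. Its E18.5 compartment difference missed the threshold (0.74 ± 0.27, adjusted p = 0.0526) and passed it with the replicate number as a block (0.73, adjusted p = 0.0342), as well as in 7 other alternatives.

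Nr1h4, the bile acid receptor FXR, was low except in 1 group, with 3.03, 3.22 and 3.68 CPM in E18.5 bladder, 0.863, 0.328 and 0.614 CPM in E18.5 urethra, 0.64, 0.373 and 0.432 CPM in E14.5 bladder, and 1.17, 0.733 and 0.771 CPM in E14.5 urethra. The lowest E18.5 bladder library was above the highest library of each other group. E18.5 bladder exceeded E18.5 urethra 5.5-fold (2.42 ± 0.39, adjusted p = 0.000427) and E14.5 bladder 6.87-fold (2.77 ± 0.41, adjusted p = 0.000186). The change of the compartment difference, 3.31 ± 0.56 (adjusted p = 0.00462), was the largest of the called members and was called in every alternative that tested it. Nr1h3, the LXR alpha of lipid-handling cells, was at 3.66, 7.4 and 5.79 CPM in E18.5 bladder, 2.79, 2.79 and 3.42 CPM in E18.5 urethra, 1.83, 2.4 and 1.38 CPM in E14.5 bladder, and 0.756, 1.36 and 1.47 CPM in E14.5 urethra. It rose 3-fold in bladder (1.58 ± 0.35, adjusted p = 0.00274) and 2.51-fold in urethra (1.32 ± 0.35, adjusted p = 0.0171). The urethral call was lost without E18.5 urethral replicate 3 (1.21). Nr1h2, the ubiquitous LXR beta, rose 1.75-fold in bladder to 80.2 ± 13.3 CPM, against 45.7 ± 3.9 CPM at E14.5 (SD, n = 3; 0.81 ± 0.15, adjusted p = 0.000901).

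**Figure D5:**
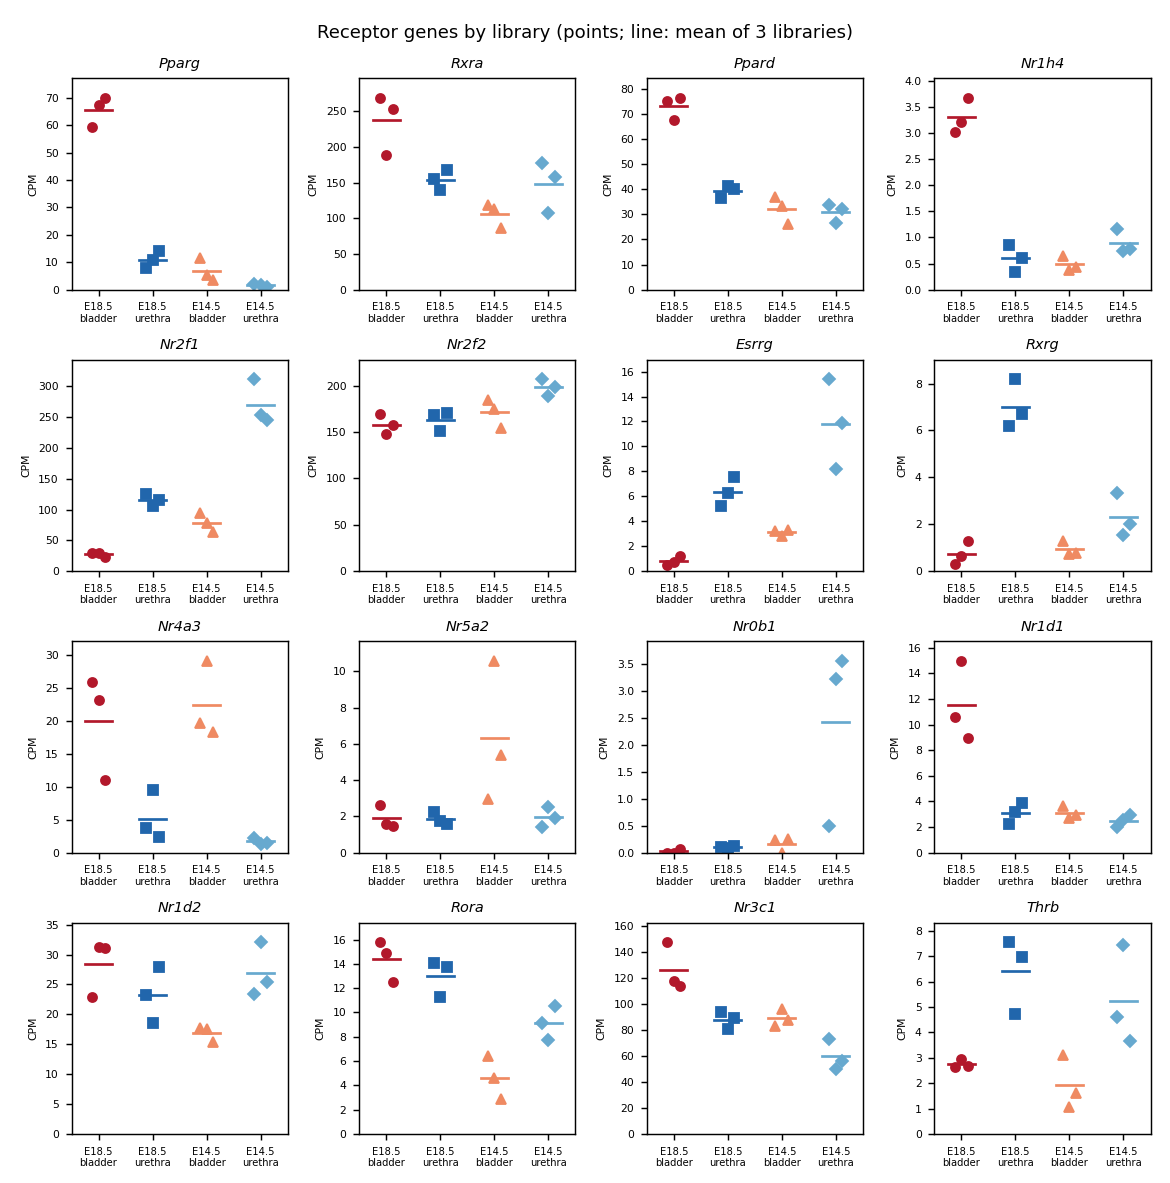
CPM (linear axes from 0) of 16 receptor genes, with 1 point per library and a line at the mean of 3 libraries. From left to right the groups are E18.5 bladder, E18.5 urethra, E14.5 bladder and E14.5 urethra. Pparg, Ppard, Nr1h4 and Nr1d1 are highest in E18.5 bladder, Nr2f1 and Esrrg are highest in E14.5 urethra, and Nr0b1 is highest in E14.5 urethra.

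For this and each later gene list, the background is the share of all tested genes called. It was 34.8% between compartments at E18.5 and 24.9% at E14.5, and 45.7% between stages in bladder and 24.4% in urethra. Known PPAR and fat cell targets were set beside these receptors. Of 18 tested, 12 rose and 2 fell in bladder by E18.5, with a median log2 difference of 1.49 (all genes -0.02). At E18.5, 8 were higher and 1 lower in bladder than in urethra (median 0.57, all genes 0.05), and at E14.5 10 were higher (median 0.74, all genes -0.0035). In urethra 10 rose and 1 fell (median 0.96, all genes -0.06). The lipid chaperone Fabp4 was at 402 ± 182 CPM in E18.5 bladder, 51.9 ± 33.9 CPM in E18.5 urethra, 11 ± 5.35 CPM in E14.5 bladder and 1.00 ± 0.191 CPM in E14.5 urethra (SD, n = 3 each). The lipid droplet gene Plin4 was at 123 ± 31.6 CPM in E18.5 bladder, against 0.747 ± 0.369 CPM in E18.5 urethra (7.36 ± 0.95, adjusted p = 0.00043). Pdk4, the brake on glucose oxidation, was at 44.5 ± 8.87 CPM in E18.5 bladder, against 8.66 ± 1.01 CPM in E18.5 urethra (2.36 ± 0.25, adjusted p = 2.34e-05).

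Defining genes of mature fat cells were near 0 in the same libraries. Over all 12 libraries Adipoq had 4 counts, Cidec 2, Plin1 21, and Lep and Cfd 0, so that Fabp4 made up nearly all of the summed fat cell marker level of 193 to 526 CPM in E18.5 bladder, 15.8 to 83.2 CPM in E18.5 urethra, 7.35 to 17.1 CPM in E14.5 bladder and 0.994 to 1.21 CPM in E14.5 urethra. All 16 epithelial markers rose in bladder, and 8 of the 16 were higher in E18.5 bladder than in E18.5 urethra, with a median log2 difference of 1.42 (all genes 0.05). At E14.5, 2 of the 16 were higher and 2 lower in bladder than in urethra (median -0.07, all genes -0.0035). Their summed level averaged 12800 CPM in E18.5 bladder, 4190 CPM in E18.5 urethra, 948 CPM in E14.5 bladder and 1070 CPM in E14.5 urethra. At E14.5 the summed level thus had a lower mean in bladder with overlapping libraries, and the genes of the list were split. Upk3a and Upk2 averaged 53.3 and 41.7 CPM in E14.5 bladder, against 6.0 and 10.1 CPM in E14.5 urethra. Krt5 and Trp63 averaged 16.2 and 7.06 CPM in E14.5 bladder, against 278 and 41.1 CPM in E14.5 urethra. Upk3a, Upk2, Krt5 and Trp63 are examples from both sides of the split list, and whether Pparg follows either side was not tested. E14.5 bladder replicate 1 was the highest of its group for Pparg and for the summed epithelial markers. The part of epithelial or fat cell RNA in the values of Pparg, Ppard, Nr1h4 and Rxra was not tested.

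LXR and sterol targets that were called all rose with age, and they were mixed between compartments. Of 14 tested, 7 rose and 0 fell in bladder by E18.5 (median 0.36, all genes -0.02). In urethra 4 rose and 0 fell (median 0.22, all genes -0.06). Of all tested genes, 23.7% rose in bladder and 13.6% in urethra. Between compartments, 4 were higher and 5 lower in bladder at E18.5 (median -0.03, all genes 0.05), and 3 were higher and 5 lower at E14.5 (median -0.03, all genes -0.0035). The lipogenic regulator Srebf1, a classical LXR target, reached 201 ± 26.2 CPM in E18.5 bladder, against 93.7 ± 12.2 CPM in E14.5 bladder (1.1 ± 0.14, adjusted p = 7.5e-05). The cholesterol exporter Abcg1 was lower in E18.5 bladder, at 9.31 ± 1.08 CPM, against 19.2 ± 2.21 CPM in E18.5 urethra (-1.04 ± 0.19, adjusted p = 0.000875).

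Among the hormone receptors, Thra and Thrb, the receptors of thyroid hormone, differed in level and in pattern. Thra was high in all groups, with means of 215, 225, 268 and 196 CPM in E18.5 bladder, E18.5 urethra, E14.5 bladder and E14.5 urethra. Its one call, 1.37-fold higher in E14.5 bladder than in E14.5 urethra (0.45 ± 0.14, adjusted p = 0.0322), was lost without any 1 of E14.5 bladder replicates 1 (0.45), 2 (0.43) and 3 (0.46) or E14.5 urethral replicates 2 (0.32) and 3 (0.43), and with only the libraries compared (0.42). Thrb was at 2.62, 2.95 and 2.69 CPM in E18.5 bladder, 7.56, 4.71 and 6.95 CPM in E18.5 urethra, 3.11, 1.08 and 1.6 CPM in E14.5 bladder, and 4.61, 7.43 and 3.67 CPM in E14.5 urethra. Bladder libraries lay below urethral ones at both stages, by 2.33-fold at E18.5 (-1.22 ± 0.38, adjusted p = 0.0238) and 2.72-fold at E14.5 (-1.45 ± 0.39, adjusted p = 0.0178). The E18.5 call did not survive leaving out E18.5 bladder replicate 1 (-1.19), 2 (-1.27) or 3 (-1.21), or E18.5 urethral replicate 1 (-1.09) or 3 (-1.16). The E14.5 call did not survive leaving out E14.5 bladder replicate 2 (-1.16) or 3 (-1.33) or E14.5 urethral replicate 2 (-1.11), nor fitting only the libraries compared (-1.48), and the difference was -2.07 (called) without replicate 1 of both E14.5 groups.

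Of 10 tested genes of thyroid hormone supply and response, 5 rose and 1 fell in each compartment by E18.5. That is 60.0%, against 45.7% of all tested genes in bladder and 24.4% in urethra. Medians were 0.54 in bladder (all genes -0.02) and 0.59 in urethra (all genes -0.06). At E18.5 2 were higher and 3 lower in bladder, and at E14.5 1 was higher and 4 were lower. The list shares Klf9 with the corticosteroid list and Dbp with the clock list. Dio2, the deiodinase that makes active hormone, fell to 14.7 ± 5.18 CPM in E18.5 bladder, against 37.2 ± 4.68 CPM in E14.5 bladder (-1.33 ± 0.26, adjusted p = 0.00119), and to 28.5 ± 6.48 CPM in E18.5 urethra, against 70.3 ± 12.6 CPM in E14.5 urethra (-1.30 ± 0.25, adjusted p = 0.00376). Klf9, which both thyroid hormone and glucocorticoids induce, rose to 91.0 ± 1.62 CPM in E18.5 bladder, against 11 ± 4.6 CPM in E14.5 bladder (3.05 ± 0.31, adjusted p = 2.55e-05). In urethra it rose to 57.0 ± 2.16 CPM at E18.5, against 14.1 ± 6 CPM at E14.5 (2.02 ± 0.30, adjusted p = 0.00108).

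The corticosteroid receptors rose in both compartments. Nr3c1, the glucocorticoid receptor, averaged 127 ± 18.3 CPM in E18.5 bladder, 87.8 ± 6.6 CPM in E18.5 urethra, 89.2 ± 6.87 CPM in E14.5 bladder and 59.9 ± 12 CPM in E14.5 urethra (SD, n = 3 each). It was called in all 4 of these comparisons, higher in bladder at E18.5 (0.53 ± 0.15, adjusted p = 0.0137) and E14.5 (0.58 ± 0.15, adjusted p = 0.0149), and higher at E18.5 in bladder (0.51 ± 0.15, adjusted p = 0.0139) and urethra (0.55 ± 0.15, adjusted p = 0.0178). The compartment difference did not change by the test (-0.05 ± 0.21, adjusted p = 0.924). The E18.5 compartment call and the rise in bladder were lost without E18.5 bladder replicate 1 (0.40 and 0.38), the first also without E18.5 urethral replicate 2 (0.47). The E14.5 call was lost without E14.5 bladder replicate 2 (0.51) or E14.5 urethral replicate 3 (0.54), and the urethral rise without E18.5 urethral replicate 1 (0.50) or 3 (0.54) or E14.5 urethral replicate 2 (0.44) or 3 (0.51). Nr3c2, the mineralocorticoid receptor, was at 5.12, 4.24 and 4.67 CPM in E18.5 bladder, 5.00, 3.97 and 3.74 CPM in E18.5 urethra, 1.92, 1.37 and 0.778 CPM in E14.5 bladder, and 2.69, 1.67 and 1.69 CPM in E14.5 urethra. The stages did not overlap, and the compartments overlapped at both. It rose 3.45-fold in bladder (1.79 ± 0.34, adjusted p = 0.00104) and 2.1-fold in urethra (1.08 ± 0.32, adjusted p = 0.0305), the urethral call being lost without E18.5 urethral replicate 1 (0.94), 2 (1.12) or 3 (1.16) or E14.5 urethral replicate 2 (0.95) or 3 (0.97).

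Of 17 tested genes of corticosteroid metabolism and response, 10 rose and 2 fell in bladder (median 0.99, all genes -0.02), and 9 rose and 1 fell in urethra (median 0.85, all genes -0.06). Between compartments, 4 were higher and 2 lower in E18.5 bladder (median 0.23, all genes 0.05), and 2 were higher in E14.5 bladder (median 0.08, all genes -0.0035). Zbtb16, a glucocorticoid-induced zinc finger factor, stood at 43.1 ± 6.39 CPM in E18.5 bladder, 8.66 ± 4.91 CPM in E18.5 urethra, 1.76 ± 0.35 CPM in E14.5 bladder and 1.23 ± 0.427 CPM in E14.5 urethra. Hsd11b1, which regenerates active glucocorticoid, was at 19 ± 4.06 CPM in E18.5 bladder, against 1.65 ± 1.3 CPM in E18.5 urethra (3.52 ± 0.50, adjusted p = 0.000188). Fkbp5, a receptor cochaperone and target, was at 113 ± 13.6 CPM in E18.5 bladder, against 48.3 ± 6.78 CPM in E18.5 urethra (1.23 ± 0.15, adjusted p = 5.8e-05).

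Vdr, the vitamin D receptor, was low in all groups, with means of 3.41, 4.15, 3.39 and 2.01 CPM in E18.5 bladder, E18.5 urethra, E14.5 bladder and E14.5 urethra, and was called in no comparison. In E14.5 bladder it was at 5.76 CPM in replicate 1, against 1.16 and 3.24 CPM in replicates 2 and 3. Of 7 tested genes of vitamin D metabolism and response, 1 was higher and 3 lower in E18.5 bladder than in E18.5 urethra (median -0.52, all genes 0.05). Among these, the calcium buffer Calb1 was at 0.693 ± 0.277 CPM in E18.5 bladder, against 7.51 ± 2.66 CPM in E18.5 urethra (-3.45 ± 0.46, adjusted p = 0.000123), and the matrix phosphoprotein gene Spp1 at 0.288 ± 0.0693 CPM, against 7.94 ± 1.95 CPM (-4.73 ± 0.62, adjusted p = 0.000114). At E14.5, 2 were lower in bladder. With age 2 rose and 1 fell in bladder, and 2 rose in urethra.

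The REV-ERB receptors Nr1d1 and Nr1d2 repress, and the ROR receptors activate, clock genes through shared DNA elements. Nr1d1 was at 10.6, 15.0 and 8.93 CPM in E18.5 bladder, 2.23, 3.2 and 3.86 CPM in E18.5 urethra, 3.66, 2.69 and 2.9 CPM in E14.5 bladder, and 2.00, 2.56 and 2.9 CPM in E14.5 urethra. Again the E18.5 bladder libraries lay above every other library. The gene was 3.72-fold above E18.5 urethra (1.89 ± 0.29, adjusted p = 0.00031) and 3.73-fold above E14.5 bladder (1.9 ± 0.29, adjusted p = 0.000246), and the change of the compartment difference was 1.59 ± 0.40 (adjusted p = 0.0306). That change was not called without any 1 of E18.5 bladder replicates 1 and 2, E18.5 urethral replicates 1 and 2, E14.5 bladder replicates 2 and 3 and E14.5 urethral replicate 3 (1.35 to 1.64). Exons of Nr1d1 overlap Thra on the opposite strand over 8.5% of their length. Thra was far more abundant, with group means of 196 to 268 CPM, and the strand setting of the counting is not given. The values of Nr1d1 are therefore uncertain too, and the part of Thra reads in them was not tested. Nr1d2 was at 22.9, 31.3 and 31.1 CPM in E18.5 bladder, 23.3, 18.6 and 27.9 CPM in E18.5 urethra, 17.8, 17.6 and 15.3 CPM in E14.5 bladder, and 23.4, 32.1 and 25.4 CPM in E14.5 urethra. Here E14.5 bladder stood lowest, without overlap with E14.5 urethra (-0.67 ± 0.19, adjusted p = 0.0206) or E18.5 bladder (0.75 ± 0.19, adjusted p = 0.00588), and the change was 0.96 ± 0.26 (adjusted p = 0.0397). The E14.5 call was lost without E14.5 bladder replicate 3 (-0.61) or E14.5 urethral replicate 2 (-0.53). The change was not called without replicate 2 or 3 of E18.5 bladder, E14.5 bladder or E14.5 urethra, or replicate 1 or 2 of E18.5 urethra (0.82 to 1.00).

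Rora was at 15.8, 14.9 and 12.5 CPM in E18.5 bladder, 14.1, 11.3 and 13.7 CPM in E18.5 urethra, 6.4, 4.64 and 2.85 CPM in E14.5 bladder, and 9.15, 7.77 and 10.5 CPM in E14.5 urethra. E14.5 bladder lay lowest, as for Nr1d2. Rora rose 3.1-fold in bladder (1.63 ± 0.26, adjusted p = 0.000348) and was 1.97-fold lower in E14.5 bladder than in E14.5 urethra (-0.98 ± 0.26, adjusted p = 0.0175), which was not called without E14.5 bladder replicate 2 (-0.98) or 3 (-0.72) or E14.5 urethral replicate 3 (-0.87), or with only the libraries compared (-1.01). Rorb, a receptor best known from retina and brain, was at 0.224, 0.268 and 0.32 CPM in E18.5 bladder, 1.27, 0.779 and 1.08 CPM in E18.5 urethra, 1.78, 0.414 and 0.865 CPM in E14.5 bladder, and 1.29, 1.75 and 1.87 CPM in E14.5 urethra. Every E18.5 bladder library lay below all others. It was 3.85-fold lower than E18.5 urethra (-1.93 ± 0.52, adjusted p = 0.011) and 3.77-fold lower than E14.5 bladder (-1.88 ± 0.52, adjusted p = 0.0109). The stage difference missed the threshold without E14.5 bladder replicate 1 (-1.21, adjusted p = 0.0615), and without that library the E14.5 compartment difference was called (-1.37, adjusted p = 0.0428).

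Of 17 tested core clock and clock output genes, 10 rose in bladder by E18.5 (median 0.65, all genes -0.02), and 6 rose in urethra (median 0.25, all genes -0.06). Between compartments, 3 were higher and 1 lower in E18.5 bladder, and 2 were higher and 3 lower in E14.5 bladder. Npas2, a paralogue of Clock, rose to 10.4 ± 1.08 CPM in E18.5 bladder, against 0.586 ± 0.294 CPM in E14.5 bladder (4.15 ± 0.35, adjusted p = 8.6e-06). Bhlhe40, a repressor that also answers to other stimuli, rose to 75.3 ± 14.9 CPM, against 16.8 ± 5.94 CPM in E14.5 bladder (2.16 ± 0.40, adjusted p = 0.0012). Arntl, the activator that REV-ERB receptors repress, rose to 20.5 ± 3.32 CPM in E18.5 bladder, against 8.15 ± 0.917 CPM (1.33 ± 0.21, adjusted p = 0.000335). The hour of collection is not given in the sources used here, and its part in the levels of clock genes was not tested.

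The COUP-TF receptors Nr2f1 and Nr2f2 are close paralogues used as regional regulators in many embryonic organs. Nr2f1 (chr13:78188973-78199757) was at 29.9, 28.7 and 22.3 CPM in E18.5 bladder, 125, 106 and 116 CPM in E18.5 urethra, 94.3, 78.9 and 63.1 CPM in E14.5 bladder, and 312, 253 and 246 CPM in E14.5 urethra. No 2 groups that were compared overlapped. It was 4.3-fold lower in bladder than in urethra at E18.5 (-2.11 ± 0.17, adjusted p = 4.23e-06) and 3.43-fold lower at E14.5 (-1.78 ± 0.16, adjusted p = 4.9e-05). With age it fell 2.92-fold in bladder (-1.55 ± 0.17, adjusted p = 2.55e-05) and 2.33-fold in urethra (-1.22 ± 0.16, adjusted p = 0.000489). These 4 calls held in all 20 alternatives, and the compartment difference did not change by the test (-0.33 ± 0.23, adjusted p = 0.414). Nr2f2 was called in no comparison. Its group means were 158 ± 10.6 CPM in E18.5 bladder, 163 ± 10.3 CPM in E18.5 urethra, 171 ± 15.4 CPM in E14.5 bladder and 198 ± 9.14 CPM in E14.5 urethra (SD, n = 3 each), and its log2 differences ran from -0.28 ± 0.10 to 0.17 ± 0.15.

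Nr2f6, a further COUP-TF relative, was 1.47-fold higher in E18.5 bladder than in E18.5 urethra (0.56 ± 0.16, adjusted p = 0.0143). This call was lost without E18.5 bladder replicate 2 (0.46) or E18.5 urethral replicate 3 (0.49), and it carries the strand uncertainty given above. The testicular receptors Nr2c1 and Nr2c2, which act as a pair of repressors in many tissues, went opposite ways in bladder. Nr2c1 was at 46.2, 31.4 and 48.0 CPM in E18.5 bladder, 30.7, 28.3 and 32.6 CPM in E18.5 urethra, 23.4, 21.8 and 20.6 CPM in E14.5 bladder, and 33.7, 27.7 and 28.1 CPM in E14.5 urethra. It rose 1.91-fold in bladder (0.94 ± 0.16, adjusted p = 0.000511), and E14.5 bladder lay below the 3 other groups. The compartment difference changed by 0.90 ± 0.22 (adjusted p = 0.0269), a call lost without E18.5 bladder replicate 1 or 3, E18.5 urethral replicate 1 or 2, E14.5 bladder replicate 2 or 3, or E14.5 urethral replicate 1 (0.80 to 0.91). Its E18.5 compartment call (0.46 ± 0.16, adjusted p = 0.039) was lost in 10 of 20 alternatives, with median-ratio scaling (0.43), without a filter on low counts (0.45), with only the libraries compared (0.40), and without E18.5 bladder replicate 1 (0.38) or 3 (0.35), any 1 E18.5 urethral library (0.41 to 0.51), E14.5 bladder replicate 2 (0.46) or E14.5 urethral replicate 3 (0.46). Nr2c2 was 1.3-fold lower in E18.5 bladder, at 86.6 ± 12.6 CPM, than in E18.5 urethra, at 113 ± 12.6 CPM (-0.38 ± 0.13, adjusted p = 0.0366), and than in E14.5 bladder, at 112 ± 11.3 CPM (-0.38 ± 0.13, adjusted p = 0.0312). The compartment call was lost without E18.5 bladder replicate 2 (-0.34) or 3 (-0.30) or E18.5 urethral replicate 1 (-0.29) or 3 (-0.42). The stage call was lost without E18.5 bladder replicate 2 (-0.34) or 3 (-0.29) or E14.5 bladder replicate 2 (-0.31) or 3 (-0.37), or with only the libraries compared (-0.36).

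Hnf4a and Nr2e3 were close to absent at E14.5. Hnf4a, a regulator of liver and gut epithelium, was at 0.523, 0.858 and 0.768 CPM in E18.5 bladder and 0.203, 0.738 and 0.351 CPM in E18.5 urethra, and it had 2 counts in all E14.5 bladder libraries together and 2 in all E14.5 urethral ones. From summed counts, its level was 24.4 times that of E14.5 in bladder (exact 95% binomial interval 6.42 to 206) and 17.8 times in urethra (4.6 to 152), and edgeR called both (adjusted p = 0.0027 and 0.0113). Hnf4a passed the low-count filter only through its E18.5 bladder libraries, so its rise in bladder is not independent of that filter. The urethral call was lost without E14.5 urethral replicate 3 (adjusted p = 0.0513). Leaving out E14.5 bladder replicate 2 or E14.5 urethral replicate 2, which held all E14.5 counts of their groups, moved the fitted log2 values to 7.35 in bladder and 6.51 in urethra. Nr2e3 had 91 counts in E18.5 bladder and 17 in E18.5 urethra, against 0 in all E14.5 libraries. It was therefore at least 27.4-fold higher in E18.5 bladder and at least 5.31-fold higher in E18.5 urethra, with the floor set at 3 counts summed over a group. These intervals and floors take every count as independent. Genes with 2 counts outnumbered genes with 1 in every library, and whether 1 fragment could give 2 counts was not tested; if so, the intervals are too narrow and the floors too low.

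The estrogen-related receptors drive oxidative metabolism together with the PGC-1 coactivators. Esrrg (chr1:187608791-188214885), the form of oxidative muscle and excitable tissue, was at 0.448, 0.751 and 1.22 CPM in E18.5 bladder, 5.23, 6.23 and 7.51 CPM in E18.5 urethra, 3.25, 2.82 and 3.29 CPM in E14.5 bladder, and 15.4, 8.16 and 11.9 CPM in E14.5 urethra. No 2 groups that were compared overlapped, and E18.5 bladder was lowest. Esrrg was 7.85-fold lower in bladder than in urethra at E18.5 (-2.95 ± 0.36, adjusted p = 6.76e-05) and 3.79-fold lower at E14.5 (-1.92 ± 0.33, adjusted p = 0.0017). It fell 3.87-fold with age in bladder (-1.93 ± 0.36, adjusted p = 0.000913). In urethra the difference of -0.90 ± 0.32 missed the threshold (adjusted p = 0.0556) and passed it in 7 alternatives, among them DESeq2 (-0.86, adjusted p = 0.0257) and without E14.5 urethral replicate 2 (-1.11, adjusted p = 0.0296) or E18.5 bladder replicate 1 or 3 (-0.90). Esrra, the ubiquitous form, ran the other way, with 55.7 ± 3.74 CPM in E18.5 bladder, 36.6 ± 1.07 CPM in E18.5 urethra, 30.9 ± 4.48 CPM in E14.5 bladder and 25.6 ± 4.43 CPM in E14.5 urethra (SD, n = 3 each). It was higher in E18.5 bladder than in E18.5 urethra (0.60 ± 0.14, adjusted p = 0.00536) and rose in bladder (0.85 ± 0.14, adjusted p = 0.00047) and urethra (0.52 ± 0.14, adjusted p = 0.021). The urethral call was lost without E18.5 urethral replicate 2 (0.51) or 3 (0.50) or E14.5 urethral replicate 3 (0.39). Esrrb, an early embryonic form, stayed under 1 CPM in every library and was not called.

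Ppargc1a and Ppargc1b, coactivators of these receptors, went opposite ways at E18.5. Ppargc1a, the inducible PGC-1 alpha, was lower in bladder, at 4.15 ± 1.16 CPM in E18.5 bladder, against 14.9 ± 1.22 CPM in E18.5 urethra (-1.84 ± 0.28, adjusted p = 0.000338), and at 4.62 ± 1.47 CPM in E14.5 bladder, against 17.2 ± 3.6 CPM in E14.5 urethra (-1.89 ± 0.28, adjusted p = 0.000763). Ppargc1b was higher in E18.5 bladder, at 8.66 ± 1.67 CPM, against 4.11 ± 0.919 CPM in E18.5 urethra (1.08 ± 0.25, adjusted p = 0.00492). Ncoa4, named as a coactivator and also an adaptor for ferritin breakdown, was at 122 ± 13.2 CPM in E18.5 bladder, against 48.5 ± 1.78 CPM in E18.5 urethra (1.33 ± 0.14, adjusted p = 2.48e-05). Of the 22 coregulators, all tested, 3 were higher and 7 lower in bladder at E18.5 (median -0.03, all genes 0.05). That is 45.5%, against 34.8% of all tested genes. At E14.5, 1 was higher and 4 lower (median -0.18, all genes -0.0035), or 22.7%, against 24.9%. With age 4 rose and 5 fell in bladder, or 40.9%, against 45.7% of all tested genes. In urethra 1 rose and 4 fell, or 22.7%, against 24.4%. Of 18 tested oxidative genes of this pathway, 10 were higher and 2 lower in E18.5 bladder than in E18.5 urethra (median 0.41, all genes 0.05), and 3 were higher at E14.5 (median 0.29, all genes -0.0035). Both lower genes at E18.5 are muscle forms: Cox6a2, at 0.0462 ± 0.0404 CPM in E18.5 bladder, against 2.52 ± 0.444 CPM in E18.5 urethra, and myoglobin, Mb, at 0.164 ± 0.0907 CPM, against 3.57 ± 0.775 CPM. With age, 5 rose and 3 fell in bladder and 3 rose and 3 fell in urethra. Skeletal muscle markers were in the samples: of 13, 3 were higher and 9 lower in E18.5 bladder than in E18.5 urethra, and their sum was 3040 to 4880 CPM in E18.5 bladder, 890 to 1340 CPM in E18.5 urethra, 27.2 to 283 CPM in E14.5 bladder and 14.4 to 161 CPM in E14.5 urethra. Most of the E18.5 bladder sum came from Acta1, Ckm and Tnnt3. They averaged 3170, 599 and 280 CPM in E18.5 bladder, against 179, 34.8 and 43.5 CPM in E18.5 urethra. The myogenic regulator Myog, picked after the values were seen, went the other way. It averaged 0.264 CPM in E18.5 bladder, 122 CPM in E18.5 urethra, 1.47 CPM in E14.5 bladder and 9.88 CPM in E14.5 urethra. All 10 neuronal markers were lower in E18.5 bladder as well. The part of skeletal muscle and neuronal RNA in the values of Esrrg, Rxrg and Ppargc1a was not tested.

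The NR4A receptors are induced within minutes by many stimuli and act without a known hormone. Nr4a3 (chr4:48045153-48086447) was at 25.8, 23.1 and 11 CPM in E18.5 bladder, 3.73, 9.42 and 2.28 CPM in E18.5 urethra, 19.6, 29.1 and 18.2 CPM in E14.5 bladder, and 2.23, 1.36 and 1.43 CPM in E14.5 urethra. Bladder libraries lay above urethral ones at both stages. The difference was 13.3-fold at E14.5 (3.74 ± 0.52, adjusted p = 0.000577) and 3.88-fold at E18.5 (1.97 ± 0.48, adjusted p = 0.0069), or 2.73 at E18.5 without E18.5 urethral replicate 2. Nr4a1 was at 16.8, 28.8 and 22.4 CPM in E18.5 bladder, 19.4, 65.1 and 18.9 CPM in E18.5 urethra, 14.2, 19.5 and 11.7 CPM in E14.5 bladder, and 11.4, 12.9 and 10.2 CPM in E14.5 urethra. E18.5 urethral replicate 2 stood far above its group mates for both genes. The rise in urethra was called for Nr4a1 (1.58 ± 0.43, adjusted p = 0.0225) and Nr4a3 (1.61 ± 0.50, adjusted p = 0.0356), and without that library it was 0.73 (adjusted p = 0.0737) for Nr4a1 and 0.85 (adjusted p = 0.172) for Nr4a3. Both calls were also lost without E14.5 urethral replicate 2 (1.67 for Nr4a1, 1.47 for Nr4a3) or 3 (1.5 and 1.51), and that of Nr4a1 without E14.5 urethral replicate 1 (1.57). Without a filter on low counts neither was called (adjusted p = 0.0705 for Nr4a1 and 0.0919 for Nr4a3), and Nr4a3 was also not called by limma-voom (1.34, adjusted p = 0.144) or with only the libraries compared (1.63, adjusted p = 0.0541). Nr4a2, the form of dopaminergic neurons, was lower in bladder at E18.5 (-0.80 ± 0.24, adjusted p = 0.0201), with 6.7 ± 2.14 CPM in E18.5 bladder, against 11.6 ± 2.21 CPM in E18.5 urethra. That call was lost without E18.5 bladder replicate 1 (-0.75) or 3 (-0.60) or E18.5 urethral replicate 2 (-0.63).

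Other immediate early genes were high in the same library. Their summed level was 1010 to 1140 CPM in E18.5 bladder and 1290 CPM in E18.5 urethral replicate 2, against 892 and 938 CPM in the other E18.5 urethral libraries, and it was 714 to 769 CPM in E14.5 bladder and 591 to 831 CPM in E14.5 urethra. Of 21 tested, 14 rose in urethra by E18.5 (median 1.11, all genes -0.06), and 9 rose and 1 fell in bladder (median 0.99, all genes -0.02). Between compartments 2 were higher and 4 lower in E18.5 bladder, and 4 were higher and 2 lower in E14.5 bladder. Fos rose to 23.8 ± 7.3 CPM in E18.5 bladder, against 2.82 ± 2.03 CPM in E14.5 bladder (3.08 ± 0.44, adjusted p = 0.000173), and Junb to 65.2 ± 6.75 CPM, against 9.66 ± 2.62 CPM (2.76 ± 0.26, adjusted p = 1.37e-05). The time that each tissue spent in trypsin before lysis is not given per sample, and its part in these levels was not tested.

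The remaining orphan receptors were low. Nr5a2, a regulator of steroid and bile acid genes, was at 2.62, 1.56 and 1.47 CPM in E18.5 bladder, 2.26, 1.72 and 1.58 CPM in E18.5 urethra, 2.97, 10.6 and 5.41 CPM in E14.5 bladder, and 1.40, 2.51 and 1.91 CPM in E14.5 urethra. All E14.5 bladder libraries lay above those of the other groups. It was 3.26-fold higher in E14.5 bladder than in E14.5 urethra (1.70 ± 0.44, adjusted p = 0.0147) and 3.36-fold lower in E18.5 than in E14.5 bladder (-1.75 ± 0.44, adjusted p = 0.0062). Without E14.5 bladder replicate 2 the compartment difference was 1.1 (adjusted p = 0.0772) and the stage difference -1.15 (adjusted p = 0.0383). The change of the compartment difference, -1.68 ± 0.62, was not called (adjusted p = 0.113), but it was with the replicate block (-1.58, adjusted p = 0.0406) and without E14.5 bladder replicate 1 (-2.00, adjusted p = 0.0294). Nr6a1, the germ cell nuclear factor, was at 7.47, 5.42 and 8.29 CPM in E18.5 bladder, 7.43, 7.74 and 7.07 CPM in E18.5 urethra, 4.25, 3.27 and 1.77 CPM in E14.5 bladder, and 3.52, 6.52 and 4.3 CPM in E14.5 urethra. The compartments overlapped at both stages and the stages did not, with a called rise of 2.28-fold in bladder (1.19 ± 0.33, adjusted p = 0.0105) and an uncalled difference of 0.63 ± 0.32 in urethra (adjusted p = 0.172).

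Nr0b1, also known as Dax1, a repressor of adrenal and gonadal development, was found almost entirely in E14.5 urethra. It was at 0, 0 and 0.064 CPM in E18.5 bladder, 0.101, 0.0819 and 0.117 CPM in E18.5 urethra, 0.229, 0 and 0.259 CPM in E14.5 bladder, and 0.492, 3.22 and 3.56 CPM in E14.5 urethra. The 3 E14.5 urethral libraries lay above all others, and replicate 1 lay far below replicates 2 and 3. Nr0b1 was 14.9-fold lower in E14.5 bladder than in E14.5 urethra (-3.88 ± 0.88, adjusted p = 0.00785) and 24.2-fold lower in E18.5 than in E14.5 urethra (-4.52 ± 0.90, adjusted p = 0.00416). The first value was -3.29 without E14.5 bladder replicate 2 and -4.70 without replicate 1 of both E14.5 groups, and was called in both. Nr0b1 passed the low-count filter only through its E14.5 urethral libraries, so these calls are not independent of that filter. At E18.5, with 2 counts in bladder and 10 in urethra, the level in urethra was 3.91 times that in bladder with a 95% interval of 0.833 to 36.7. Nr5a1, which acts with Nr0b1 in adrenal and gonad, had at most 0.99 CPM in any library and was not tested.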

How the data were processed

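Each library is poly(A) RNA from pooled females of 1 litter, 3 litters a stage, read as 100 bp pairs. Per the submitters' processing notes, bcl2fastq, HISAT2 2.2.1 and SAMtools 1.9 were used with GRCm38. How reads were counted, with which strand setting and gene annotation, is not given in the sources used here. The authors deposited raw counts per gene, in 1 table a stage. Genes with exactly 2 counts outnumbered genes with 1 by 2.06 to 2.51 times in each library, and the 37 mitochondrial genes had 0 counts. All 39 members lie at their GENCODE mouse release 21 positions.

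Genes passing edgeR 4.0.16 filterByExpr (minimum count 10) were TMM-scaled and fitted in R 4.3.3 as 4 group means over 12 libraries, with 8 residual degrees of freedom. Robust quasi-likelihood F tests gave 5 comparisons, with Benjamini-Hochberg adjustment over 18805 genes in each and a threshold of 0.05. The SE is the log2 difference divided by the root of F. Levels are CPM on TMM-scaled totals, with SD over 3 libraries. Intervals and floors cover counting error only. The steps were tested on simulated counts with 200 changed genes. Of 2-fold changes, 20% were recovered for the change of the compartment difference and 36% to 51% in the other comparisons. Of 4-fold changes, 68% to 85% were. False calls were 2.65% to 8.11% of calls, with the highest value at E14.5. A difference that was not called can therefore still be a real one. Alternatives were median-ratio size factors, DESeq2 1.42.0, limma-voom (limma 3.58.1), no filter, a stricter filter, only the libraries compared, each library left out, replicate 1 of both E14.5 groups left out, and the replicate number as a block.

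Every library's value is given for the 18 members called with at least a 2-fold difference and averaging at least 1 CPM in a group. Other list genes are the most changed called genes, unless stated. The members and the 22 gene lists were chosen with earlier results of these data known. At E18.5, bladder and urethral libraries of the same number deviated together (correlations over genes of 0.197, 0.193 and 0.286). At E14.5 the values were 0.191, -0.0285 and 0.206, so the numbers were not taken to pair those samples. The litters of a stage gave both bladder and urethral samples, and no label ties the replicate numbers to litters. The main tests used no block at either stage, so they ignored any pairing, also at E18.5, and the block was an alternative only.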

Additional observations from a re-analysis of the deposited data

Results flagged for a closer look

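For 6 receptors the bladder over urethra difference itself differed between the stages by edgeR's test of E18.5 minus E14.5, with 3 libraries in each of the 4 groups. That is 18.2% of the 33 tested members, against 8.67% of all tested genes. With 1 library left out, the count was 1 to 7. The bile acid receptor Nr1h4 had the largest change, 3.31 ± 0.56 (adjusted p = 0.00462), with a compartment difference of 2.42 at E18.5 and -0.88 at E14.5. It was called with every single library left out, at 3.04 to 3.66. The clock repressor Nr1d1 changed by 1.59 ± 0.40 (adjusted p = 0.0306), with differences of 1.89 at E18.5 and 0.31 at E14.5. Its relative Nr1d2 changed by 0.96 ± 0.26 (adjusted p = 0.0397), with 0.29 at E18.5 and -0.67 at E14.5. The dimer partner Rxra changed by 1.1 ± 0.27 (adjusted p = 0.0267), with 0.62 at E18.5 and -0.48 at E14.5. The orphan receptor Nr2c1 changed by 0.90 ± 0.22 (adjusted p = 0.0269), with 0.46 at E18.5 and -0.45 at E14.5. The fatty acid receptor Ppard changed by 0.83 ± 0.20 (adjusted p = 0.0218), with 0.90 at E18.5 and 0.06 at E14.5. In Nr1d1, Nr1d2, Rxra, Nr2c1 and Ppard the call was lost in 5 to 8 of the fits that left out 1 library, and the value stayed above 0 in each of these.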

How the results depend on the processing

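Of 65 called member differences among 165 tests, 36 were called in every alternative that tested them, 29 were lost in at least 1, and 0 reversed. Not every test had all 20 alternatives. The fit of only the libraries compared was not run for the change, and the stricter filter dropped some members. Of the 100 not called, 17 were called in an alternative. Uncalled differences had the other sign in 50 of 3248 alternative values, over 24 estimates. With 1 library left out, the counts called at E14.5 were 2 to 5 higher and 3 to 8 lower, and at E18.5 8 to 13 higher and 4 to 7 lower. For the change they were 1 to 7 higher and 0 to 1 lower. Between stages they were 15 to 18 higher and 4 to 6 lower in bladder, and 2 to 11 higher and 2 to 3 lower in urethra. The count of members whose difference changed toward urethra was 2 with DESeq2, 2 without replicate 1 of both E14.5 groups and 2 with the replicate block, against 0. The count of falls in bladder was 3 with only the libraries compared, against 5. The causes were not tested. The replicate block lost 0 calls and gained 7: Ppara at E18.5 (0.73) and in bladder (0.64), Rxrg (-1.26) and Nr2c1 (-0.44) at E14.5, Esrrg in urethra (-0.87), and the changes of Rxrg (-2.09) and Nr5a2 (-1.58). It moved the fitted rise of Hnf4a to 5.71 in bladder and 5.39 in urethra. At 21495169 to 36349777 counts a library, members under 1 CPM rest on few reads.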

Other observations

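Genes of retinoic acid signalling, which act with retinoid X receptors, were mostly lower in bladder than in urethral mesenchyme. Of 13 tested, 1 was higher and 10 lower at E18.5 (median log2 difference -1.15, all genes 0.05), and 9 were lower at E14.5 (median -1.11, all genes -0.0035). With age 3 rose and 9 fell in bladder (median -1.26, all genes -0.02), and 1 rose and 5 fell in urethra (median -0.47, all genes -0.06). The retinol importer gene Stra6 differed by -4.80 at E18.5 and -2.36 at E14.5, and Crabp2, which carries retinoic acid to its receptors, by -3.89 at E18.5 and -1.33 at E14.5. The receptor gene Rarb fell in urethra to 66.3 ± 7.43 CPM at E18.5, against 151 ± 17.6 CPM at E14.5 (SD, n = 3 each).

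Marker lists of other cell types gave these sums over the 3 libraries of each group. Glial markers summed to 155 to 188 CPM in E18.5 bladder, 194 to 281 CPM in E18.5 urethra, 29.0 to 82.0 CPM in E14.5 bladder and 95.9 to 156 CPM in E14.5 urethra. Endothelial markers summed to 420 to 563 CPM in E18.5 bladder, 605 to 692 CPM in E18.5 urethra, 465 to 837 CPM in E14.5 bladder and 352 to 548 CPM in E14.5 urethra. Leukocyte markers summed to 183 to 210 CPM in E18.5 bladder, 250 to 252 CPM in E18.5 urethra, 146 to 192 CPM in E14.5 bladder and 99.3 to 126 CPM in E14.5 urethra. Mesothelial markers, which share Krt19 with the epithelial list, summed to 1830 to 2630 CPM in E18.5 bladder, 535 to 767 CPM in E18.5 urethra, 200 to 800 CPM in E14.5 bladder and 169 to 228 CPM in E14.5 urethra. Red blood cell markers summed to 649 to 951 CPM in E18.5 bladder, 699 to 731 CPM in E18.5 urethra, 1310 to 1600 CPM in E14.5 bladder and 728 to 1050 CPM in E14.5 urethra. Liver and gut markers, in which Cdx2 and Fabp1 were at 0, summed to 44.7 to 74.2 CPM in E18.5 bladder, 11.5 to 12.6 CPM in E18.5 urethra, 2.25 to 22.5 CPM in E14.5 bladder and 1.58 to 2.27 CPM in E14.5 urethra.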
